A study of Mus musculus with 6 samples.

Results

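This report describes 10 hydroxysteroid dehydrogenase genes in mouse liver: Hsd3b2, Hsd3b3, Hsd3b5, Hsd11b1, Hsd17b2, Hsd17b6, Hsd17b10, Hsd17b11, Hsd17b12 and Hsd17b13. They were taken from the count files by gene symbol, and all 10 have a row among the 23282 rows of the files and passed the filter on low counts, which left 12505 rows to test. The list was chosen by name with the measured differences between vehicle and atractylodin already known, so the values of that comparison are given here as a description of these genes. Their adjusted p-values come from the fit over all tested rows and are no independent evidence about the list as a whole.

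Livers came from male mice of strain C57BL/6N, named as C57BL/6 in the sample labels, that began a high-fat diet at 8 weeks of age and were kept on it for 12 weeks. From week 8 of the diet one group received atractylodin, a polyacetylene of Atractylodes rhizomes, orally at 10 mg/kg on 5 days of each of the last 4 weeks, and the other group received vehicle. Each group holds 3 RNA libraries made with a QuantSeq 3' kit, and every animal, controls included, was on the high-fat diet. The labels do not say that each library is a separate mouse, so p-values measure only the spread between libraries, which may be technical. No animal on a normal diet is part of the comparison.

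Hydroxysteroid dehydrogenases oxidise or reduce a hydroxyl or keto group of steroids and so switch hormones between active and inactive forms. The 3-beta enzymes act on the third carbon of the steroid ring, the 11-beta enzymes interconvert cortisone-type and cortisol-type glucocorticoids, and the 17-beta enzymes act on estrogens and androgens. Several enzymes that carry the 17-beta name work mainly on lipids: in hepatocytes HSD17B11 and HSD17B13 sit on lipid droplets, HSD17B12 reduces intermediates of fatty acid elongation, and HSD17B10 is a mitochondrial enzyme of isoleucine breakdown.

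Of the 10 genes, 3 fell with atractylodin (Hsd3b2, Hsd17b2 and Hsd17b12) and none rose, where over all tested rows 3.33% were called lower and 3.92% higher by edgeR. A further group of genes, Hsd3b3, Hsd17b6 and Hsd17b10, had lower values in every atractylodin library than in any vehicle library without passing the threshold. The groups thus did not overlap for 6 of the 10 genes, all lower, against 12.6% of tested rows that were lower and 13.5% that were higher without overlap. The median log2 fold change of the 10 was -0.38, and that of all tested rows was -0.0015. Since the list was drawn up with this comparison known, nothing is read from these counts. Scaling by total counts alone moved the calls over all rows from 490 higher and 416 lower to 312 higher and 707 lower, and the calls among the 10 genes from 3 to 5 lower.

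The reference sequences just upstream are shown for 3 of the 6 genes with lower values in every atractylodin library than in any vehicle library. Hsd17b6 and Hsd17b10 also had such values and are not shown, and Hsd17b2 had no promoter to show. The sequences are from RefSeq on GRCm38.p6, read 5' to 3' on the gene's strand, and stop where the annotated gene begins in GENCODE M21. All 3 genes lie on the minus strand, with the Hsd3b2 stretch at chr3:98724544-98724793, the Hsd3b3 stretch at chr3:98763129-98763378 and the Hsd17b12 stretch at chr2:94157965-94158159. Capitals mark a CCAAT box in either orientation.
Hsd3b2: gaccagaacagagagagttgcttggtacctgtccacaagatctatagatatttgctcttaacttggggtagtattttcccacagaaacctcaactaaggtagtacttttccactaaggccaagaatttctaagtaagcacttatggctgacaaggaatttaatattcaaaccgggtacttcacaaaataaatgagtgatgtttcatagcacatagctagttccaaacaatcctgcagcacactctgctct
Hsd3b3: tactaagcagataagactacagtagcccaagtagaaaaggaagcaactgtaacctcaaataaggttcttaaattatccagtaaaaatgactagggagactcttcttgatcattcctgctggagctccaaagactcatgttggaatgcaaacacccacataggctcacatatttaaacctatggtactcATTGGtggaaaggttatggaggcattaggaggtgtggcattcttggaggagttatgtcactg
Hsd17b12: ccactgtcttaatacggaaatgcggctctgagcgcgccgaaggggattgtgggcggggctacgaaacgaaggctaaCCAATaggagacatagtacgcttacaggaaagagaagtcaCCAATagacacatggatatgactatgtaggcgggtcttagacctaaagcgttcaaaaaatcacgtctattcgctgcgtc

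The search covered 250 bases upstream of the RefSeq start, on both strands, for 8 motifs. These were the TATA box (TATAAA), the CCAAT box, the STAT pattern TTCNNNGAA, the steroid receptor inverted repeat ACANNNTGT, the nuclear receptor half-site AGGTCA, the HNF4 pattern CAAAGTCCA, the C/EBP pattern TTGCNNAA and the E-box CACGTG. None of them was found upstream of Hsd3b2. Hsd3b3 had a single CCAAT box, 62 to 58 bases before the RefSeq start used for the stretch shown. Another RefSeq start of Hsd3b3 had a CCAAT box 63 to 59 bases before it. Hsd17b12 had a pair of CCAAT boxes, at 174 to 170 and 134 to 130 bases before its RefSeq start. CCAAT occurred in 33.85% of the 32851 promoters of the same length, TATAAA in 12.37%, the STAT pattern in 7.02%, the inverted repeat in 5.84%, the HNF4 pattern in 0.38% and the E-box in 6.02%. Among the other genes with a promoter in the table, Hsd11b1, Hsd17b6, Hsd17b10 and Hsd17b11 also held a CCAAT box, Hsd17b11 a TTGCNNAA match (9.56% of promoters) and Hsd17b13 an AGGTCA match (14.02%). A promoter was in the table for 9 of the 10 genes, Hsd17b2 being the exception. These were 11 promoters, since Hsd3b3 and Hsd17b6 had a pair each. The windows of Hsd11b1 and of the other Hsd3b3 start lay wholly inside the annotated gene spans. These matches are a description of letters and say nothing about which factor binds.

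The libraries differed in depth. Total counts were 1831461 for vehicle 1 and 9871762 to 12565393 for the other 5 libraries, and vehicle 1 held counts in 13887 rows where the others had 16076 to 16209. A count of 3 equalled 1.61 CPM (counts divided by the TMM-scaled total, in units of 1e6) in vehicle 1 and 0.243 to 0.313 CPM elsewhere, and every value of the 10 genes lay above it. Hepatocyte markers summed to 109320 to 126460 CPM in vehicle and 113780 to 117050 CPM in atractylodin libraries, so by their abundance the liver label held. Between the groups 0 of 7 were called. Of 7 adrenal cortex markers, Cyp11a1, Cyp11b1 and Cyp11b2, which mark steroid-producing tissue, had 0 counts in all 6 libraries. The 7 summed to 2.15 to 4.81 CPM in vehicle and 3.93 to 5.95 CPM in atractylodin libraries. Star, the only 1 tested, was not called (log2 fold change 0.45). Cholangiocyte markers had lower sums, 64.6 to 81.3 CPM in vehicle against 33.1 to 35.7 CPM in atractylodin libraries. Of 7 such markers 4 were tested and 3 were called lower (Sox9, Spp1 and Tstd1). The remaining tested gene had a log2 fold change of 0.05 and was not called. Liver endothelial markers gave 1 rise and 2 falls of 8 (sums of 299 to 315 CPM against 272 to 300.5 CPM), with none left without vehicle 1, vehicle 2, vehicle 3 or atractylodin 3. Of 12 Kupffer cell and 8 stellate cell markers none was called by edgeR on all 6 libraries, with 3 of each at an unadjusted p under 0.05 and 1 stellate cell gene called by DESeq2 and limma-voom (sums of 383 to 547 against 314 to 472 CPM, and of 422 to 534 against 351 to 469 CPM). Without atractylodin 1, 2 Kupffer cell genes fell. A different stellate cell gene fell without each of vehicle 2, vehicle 3 and atractylodin 1. Of 2 lymphocyte genes tested, Themis fell. Pericentral hepatocyte genes gave 2 rises and 2 falls of 8, with 0 to 1 rises and 0 to 2 falls in the leave-one-out fits and neither without vehicle 3. Periportal genes gave 1 rise (Pck1, also on the glucocorticoid list below) and 1 fall (Hal) of 7, with a median log2 fold change of 0.11. Their sums were 1838 to 2477 CPM in vehicle against 4230 to 4941 CPM in atractylodin libraries, and most of that gap was Pck1 alone. Tissue handling genes gave 1 rise of 9 (2 with DESeq2 or limma-voom), with sums of 167 to 199 CPM against 233 to 309 CPM and a median log2 fold change of 0.54. The part of these cell types and of handling in the results below was not tested, and in whole liver fewer cells of a type cannot be told apart from less RNA per cell.

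**Figure D1:**
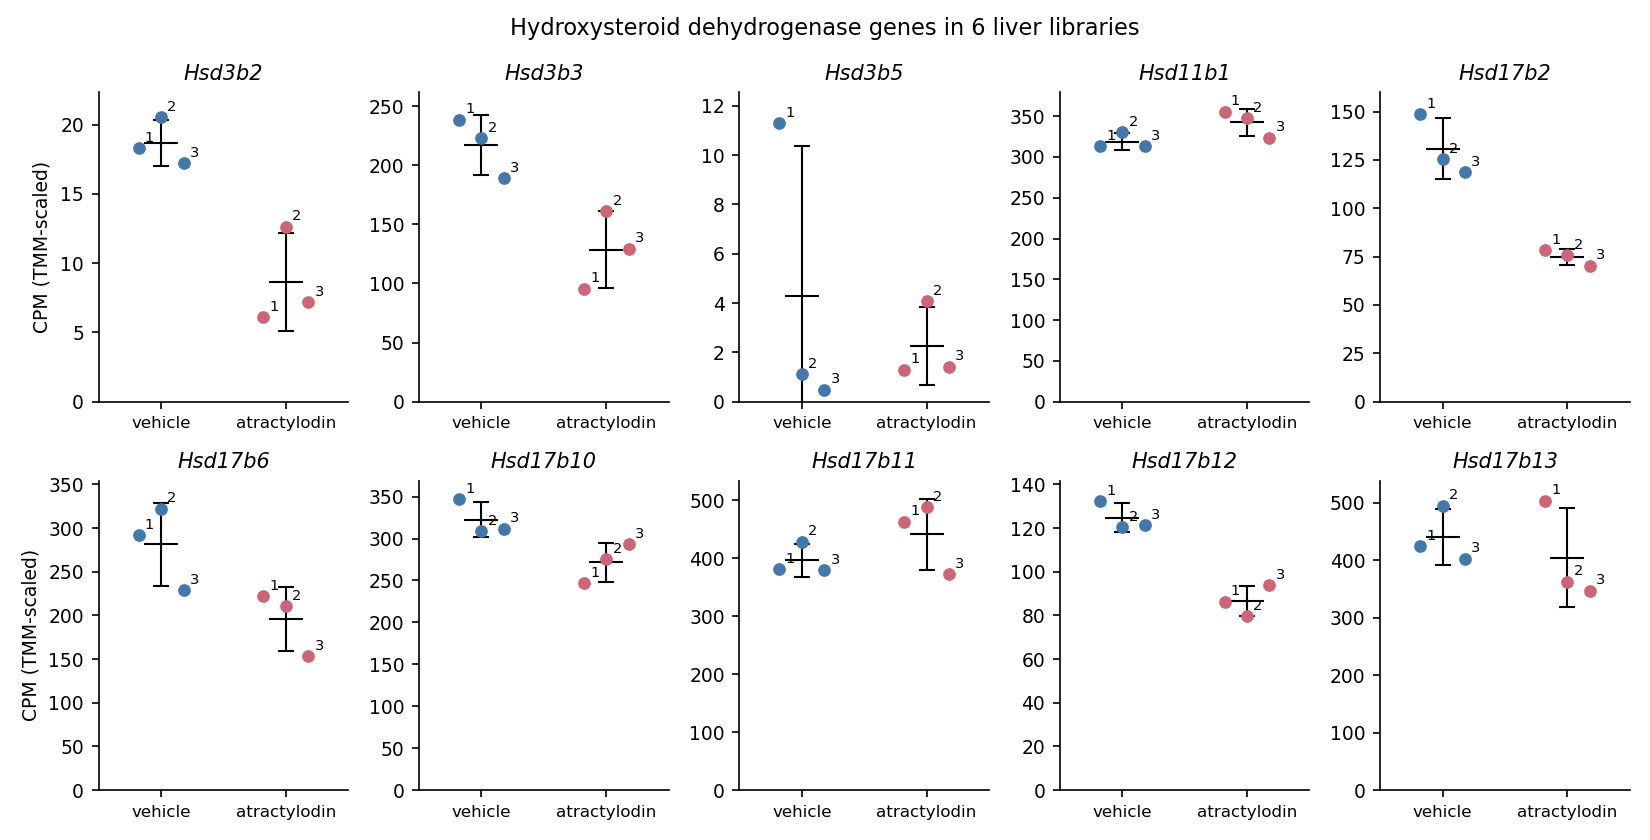
Normalised counts (CPM, TMM-scaled, linear axes from 0) of the 10 genes in each library; points are libraries with their number, horizontal lines are group means and bars are 1 SD (n = 3), the lower bar of Hsd3b5 being hidden below 0. Hsd3b2, Hsd3b3, Hsd17b2, Hsd17b6, Hsd17b10 and Hsd17b12 show no overlap between groups, and vehicle 1 stands alone for Hsd3b5 at 11.3 CPM.

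The 3-beta enzymes come from a cluster of related genes on chromosome 3 (GRCm38), and the 3 described here lie on the minus strand. Coding sequences of Hsd3b1 to Hsd3b6 were 80.3% (Hsd3b3 and Hsd3b5) to 95.2% (Hsd3b4 and Hsd3b5) identical, and those of Hsd3b2 and Hsd3b3 95.1%. Hsd3b2 spans 98709255 to 98724543, Hsd3b3 spans 98741523 to 98763127 and Hsd3b5 spans 98618634 to 98630252, and each overlaps the span of Zfp697 on the opposite strand, so reads of that gene could be mixed in if strand was not used in counting. HSD3B2 and HSD3B3 belong to the group that oxidises 3-beta-hydroxy-5-ene steroids such as pregnenolone, the step that makes progesterone-type steroids. Hsd3b2 stood at 18.3, 20.5 and 17.2 CPM in vehicle 1, 2 and 3, and at 6.08, 12.6 and 7.18 CPM in atractylodin 1, 2 and 3. All 3 treated libraries were below all controls, and atractylodin 2 lay nearest to them. The mean went from 18.7 ± 1.68 to 8.63 ± 3.51 CPM (SD, n = 3), a 2.18-fold lower level or -1.13 ± 0.24 (SE) on the log2 scale (edgeR adjusted p = 0.00893). The fall was called in each of the 6 fits that left out a library, with log2 fold changes from -1.49 to -0.93.

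Hsd3b3 stood at 238, 223 and 189 CPM in the vehicle libraries and at 95.7, 160.9 and 129 CPM in the atractylodin libraries. The order of the treated libraries was that of Hsd3b2, with atractylodin 1 lowest and atractylodin 2 highest. The means were 217 ± 25.3 and 129 ± 32.6 CPM (SD, n = 3), the log2 fold change was -0.75 with a 95% interval of -1.19 to -0.31, and edgeR gave an adjusted p of 0.0601. The call turned on single libraries: without atractylodin 1 the adjusted p was 0.00735 and without atractylodin 2 it was 0.00132. DESeq2 also called it (adjusted p = 0.000313), as did 5 other alternatives, and over all 15 alternatives the adjusted p ranged from 2.27e-10 to 0.194.

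Hsd3b5 encodes an enzyme of male mouse liver that reduces 3-ketosteroids, and the gene is known as a target of pulsatile growth hormone. It was low in every library. Counts were 21, 13 and 6 in the vehicle libraries, or 11.3, 1.12 and 0.49 CPM, and 13, 39 and 17 in the atractylodin libraries, or 1.30, 4.07 and 1.42 CPM. The shallowest library, vehicle 1, held the highest level and vehicle 3 the lowest, so the treated values fell inside the range of the controls. The log2 fold change of -0.23 had a 95% interval of -3.70 to 3.24 (adjusted p = 0.944), and without vehicle 1 it turned to 1.48 (adjusted p = 0.261). No direction can be given for this gene.

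Among the 6 genes Hsd3b1 to Hsd3b6, Hsd3b3 supplied most reads. Its share of their summed counts was 88.4% to 90.8% in vehicle and 89.7% to 92.7% in atractylodin libraries. Hsd3b8 and Hsd3b9 were not part of this sum. The share of Hsd3b2 was 6.79% (exact 95% interval 4.75% to 9.36%), 8.35% (7.37% to 9.43%) and 8.28% (7.24% to 9.41%) in vehicle 1, 2 and 3. In atractylodin 1, 2 and 3 it was 5.88% (4.53% to 7.49%), 7.04% (5.88% to 8.35%) and 5.15% (4.14% to 6.32%). The groups overlapped, and these intervals cover counting error only. The summed level of Hsd3b1 to Hsd3b6 was 269.7, 245.6 and 208 CPM in vehicle and 103.4, 179.5 and 139.6 CPM in atractylodin libraries. Reads of paralogs may be shared where the end of the transcript is alike. Over the last 300 bases of the longest annotated transcripts, Hsd3b2 and Hsd3b3 are 48.4% identical, Hsd3b4 and Hsd3b5 84% and Hsd3b3 and Hsd3b6 94%. Hsd3b6 itself held 3 to 17 counts per library.

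Hsd11b1 (chromosome 1, 193221634 to 193264075, minus strand) encodes the reductase that regenerates active glucocorticoid inside hepatocytes. Its level was the steadiest of the 10 within the vehicle group, with a coefficient of variation of 3.08%. Vehicle libraries stood at 313.3, 330.3 and 313.3 CPM and atractylodin libraries at 355.7, 347.8 and 323.8 CPM. The groups overlapped at one library of each, and the means were 319 ± 9.82 and 342 ± 16.6 CPM (SD, n = 3). The log2 fold change was 0.10 with a 95% interval of -0.09 to 0.29 (adjusted p = 0.563), an interval that holds 0. The gene overlaps Lamb3 and 4930570N18Rik on the opposite strand and Gm38118 on its own.

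Of 16 tested genes of glucocorticoid activation and response, 5 rose and none fell, with a median log2 fold change of 0.53, and the leave-one-out fits gave 4 to 6 rises. Zbtb16, encoding a zinc-finger factor, went from 4.16 ± 1.74 to 32.9 ± 1.86 CPM (± SD, 3 libraries a group, edgeR adjusted p = 1.15e-07), the clock gene Per1 from 10.8 ± 1.24 to 28.4 ± 7.75 CPM (adjusted p = 0.000712), the gluconeogenic gene Pck1 from 1145 ± 301.2 to 3644 ± 304.8 CPM (adjusted p = 0.00247) and the receptor co-chaperone gene Fkbp5 from 66.8 ± 15.2 to 97.4 ± 7.54 CPM (adjusted p = 0.0121). The call of Fkbp5 was lost without vehicle 2 and without vehicle 3. H6pd, outside the rule for named genes and given for its role as the supplier of NADPH to the HSD11B1 reductase, stood at 276 ± 27.6 and 337 ± 51.7 CPM (adjusted p = 0.140). Nr3c1, the glucocorticoid receptor gene, named for its role too, stood at 59.9 ± 2.69 and 55.5 ± 5.56 CPM (adjusted p = 0.645).

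Hsd17b2 (chromosome 8, 117701904 to 117759027, plus strand) encodes the enzyme that inactivates estradiol and testosterone by oxidation. It had the smallest adjusted p of the 10 genes. Its level was 148.6, 125.3 and 118.5 CPM in vehicle 1, 2 and 3 and 78.4, 75.6 and 70.3 CPM in atractylodin 1, 2 and 3. The treated libraries lay close together, all well under the lowest control. The means were 131 ± 15.8 and 74.8 ± 4.11 CPM (SD, n = 3), a 1.73-fold lower level or -0.79 ± 0.10 (SE) on the log2 scale (adjusted p = 0.000187). The fall was called under all 15 alternatives, with log2 fold changes from -0.89 to -0.70. Gm45776 overlaps it on the same strand and Gm31774 on the other.

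Hsd17b6 (chromosome 10, 127990936 to 128007611, minus strand) encodes an oxidoreductase of the retinol dehydrogenase branch that acts on androgens. Vehicle libraries stood at 292, 322.3 and 229 CPM and atractylodin libraries at 222, 211 and 154 CPM. The groups were barely apart, since vehicle 3 exceeded atractylodin 1 by a few CPM. The log2 fold change was -0.52 with a 95% interval of -0.90 to -0.15 and the adjusted p was 0.104. Without vehicle 3 the adjusted p was 0.0270, DESeq2 gave 0.0167, and over the 15 alternatives it was called in 5. Among 16 related retinol and short-chain dehydrogenases 3 fell and none rose (median log2 fold change -0.09): Pecr, a peroxisomal enoyl-CoA reductase, from 259 ± 26.4 to 165 ± 16.9 CPM (± SD, 3 libraries a group, adjusted p = 0.000945), the retinal reductase gene Dhrs3 from 85.0 ± 3.07 to 63.9 ± 7.69 CPM (adjusted p = 0.0215) and Rdh9 from 91.7 ± 25.0 to 52.7 ± 5.48 CPM (adjusted p = 0.0382). The leave-one-out fits left 1 to 2 falls, and the calls of Dhrs3 and Rdh9 were gone in 5 and 4 of the 6 leave-one-out fits.

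Other enzymes that change steroids went both ways. Of 13 tested, 3 rose and 1 fell, with a median log2 fold change of 0.11. The median was -0.02 without vehicle 1, -0.15 without atractylodin 2 and -0.13 with no filter. It was positive under the remaining alternatives. The leave-one-out fits gave 2 to 4 rises and 0 to 1 falls. Cbr1, a carbonyl reductase, rose from 89.6 ± 13.5 to 139.6 ± 15.8 CPM (± SD, 3 libraries a group, adjusted p = 0.0032), Akr1c13 from 107 ± 8.86 to 152 ± 9.73 CPM (adjusted p = 0.00355) and Cyp7b1, an oxysterol hydroxylase, from 51.8 ± 3.18 to 87.1 ± 20.4 CPM (adjusted p = 0.0148). Akr1d1, which reduces the steroid double bond on the way to bile acids, fell from 43.1 ± 2.52 to 29.2 ± 7.13 CPM (adjusted p = 0.0389). The call of Cyp7b1 was gone in 4 and that of Akr1d1 in 5 of the 6 leave-one-out fits. Limma-voom did not call Akr1d1 either.

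Hsd17b10 (chromosome X, 152001845 to 152004442, plus strand) encodes a mitochondrial dehydrogenase that is also a subunit of mitochondrial RNase P. Its level was 346.7, 309 and 312 CPM in vehicle libraries and 247, 275 and 293 CPM in atractylodin libraries. All treated libraries lay below all controls, but the gap was narrow. The log2 fold change was -0.24 with a 95% interval of -0.44 to -0.04 (adjusted p = 0.142). It was called in 1 of 15 alternatives, scaling by total counts alone (-0.33, adjusted p = 0.0385). Of 19 tested genes of branched-chain amino acid breakdown and mitochondrial RNase P none was called by edgeR, 0 had an unadjusted p under 0.05, and DESeq2 and limma-voom called 0. Their median log2 fold change was 0.01, and the smallest p was that of Dbt (49.2 ± 6.26 and 57.7 ± 6.46 CPM, adjusted p = 0.253). Only a single gene of the 19 stood for mitochondrial RNase P.

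Hsd17b12 (chromosome 2, 94032689 to 94157964, minus strand) encodes the 3-ketoacyl-CoA reductase of fatty acid elongation in the endoplasmic reticulum. Its level was 132, 120.5 and 121.5 CPM in vehicle 1, 2 and 3 and 86.4, 79.7 and 93.8 CPM in atractylodin 1, 2 and 3. Each treated library was well below each control, and both groups were tight. The means were 125 ± 6.60 and 86.6 ± 7.06 CPM (SD, n = 3), a 1.43-fold lower level or -0.52 ± 0.10 (SE) on the log2 scale (adjusted p = 0.00293). All 15 alternatives called the fall, with log2 fold changes from -0.60 to -0.46.

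The other enzymes of the elongation cycle did not share a direction. Of 10 tested, 2 fell and 1 rose (median log2 fold change -0.18). Elovl3 fell from 48.4 ± 8.53 to 24.2 ± 5.10 CPM (± SD, 3 libraries a group, adjusted p = 0.00283) and Elovl6, which elongates palmitate, from 25.2 ± 0.76 to 15.7 ± 2.07 CPM (adjusted p = 0.00977), while Elovl2, which elongates polyunsaturated fatty acids, rose from 249.5 ± 16.6 to 358 ± 53.1 CPM (adjusted p = 0.00643). The call of Elovl2 was lost without vehicle 1, and the leave-one-out fits gave 0 to 1 rises and 2 to 3 falls.

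Hsd17b11 and Hsd17b13 are neighbours on chromosome 5, minus strand, at 103989762 to 104021919 and 103955440 to 103977410, with 12351 bases and no protein-coding gene between them. Both proteins coat lipid droplets, and loss-of-function variants of the human HSD17B13 gene are known to protect against progressive fatty liver disease. Hsd17b11 stood at 381, 428 and 379 CPM in vehicle and at 463, 488 and 372 CPM in atractylodin libraries. Atractylodin 3 was the lowest of all 6 and the other 2 treated libraries the highest. The log2 fold change was 0.15 with a 95% interval of -0.07 to 0.38 (adjusted p = 0.445). Hsd17b13 stood at 424, 495 and 403 CPM in vehicle and at 504, 363 and 347 CPM in atractylodin libraries, where atractylodin 1 was the highest of all 6 and the remaining treated libraries the lowest. The log2 fold change was -0.12 with a 95% interval of -0.43 to 0.18 (adjusted p = 0.659). Neither gene was called under any of the 15 alternatives, and the intervals leave room for changes of either sign.

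Among 18 lipid droplet coat and lipolysis genes 1 rose and 1 fell (median log2 fold change -0.16), and limma-voom called neither. The leave-one-out fits gave 0 to 2 rises and 0 to 2 falls. Plin3, a droplet coat protein gene, went from 68.5 ± 11.4 to 48.1 ± 0.62 CPM (± SD, 3 libraries a group, adjusted p = 0.0177) and Pnpla2, encoding adipose triglyceride lipase, from 95.7 ± 13.1 to 125 ± 9.85 CPM (adjusted p = 0.0387). The call of Plin3 was gone in 2 of 6 leave-one-out fits and with limma-voom. That of Pnpla2 was gone in 4 of 6 and also with DESeq2, limma-voom, upper quartile scaling, total counts alone, the replicate block and thinning, so it was kept by 3 of the 9 other alternatives.

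**Figure D2:**
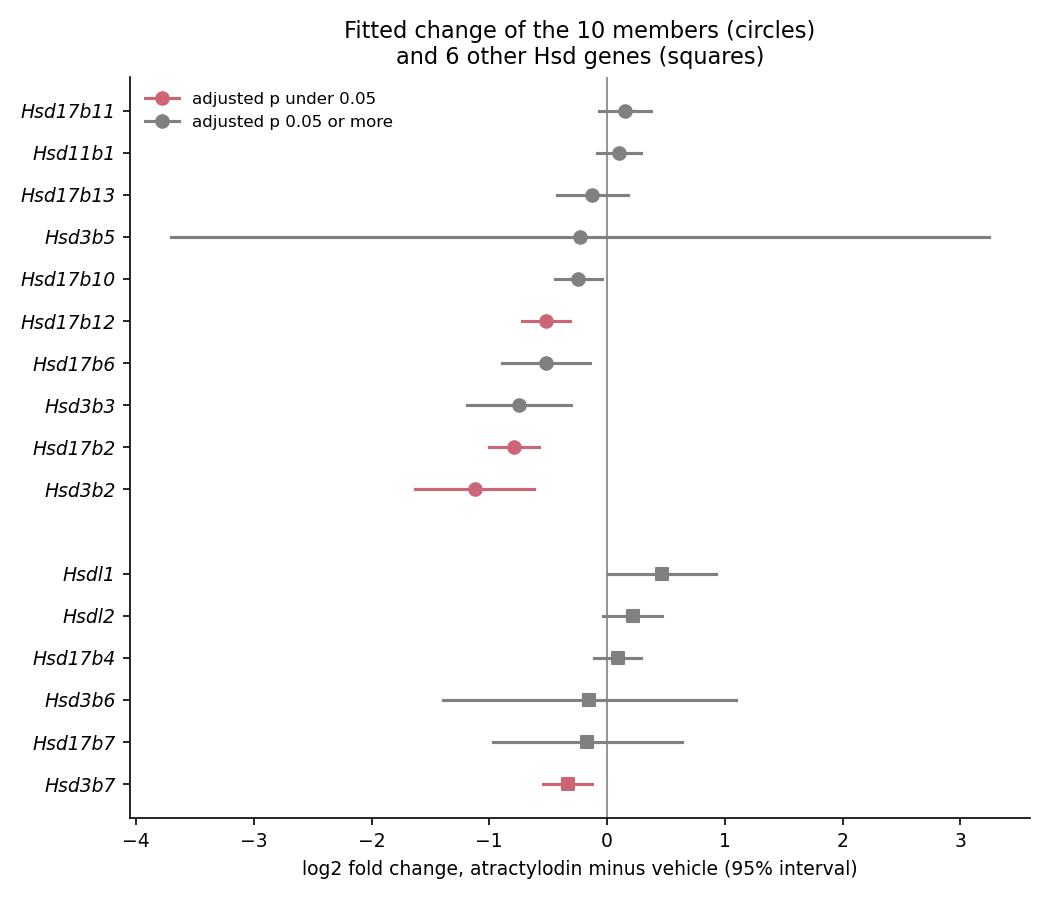
Log2 fold change of atractylodin over vehicle from edgeR with its 95% interval, for the 10 genes (circles) and 6 other Hsd-named genes that could be tested (squares); red marks an adjusted p under 0.05. Among the 10 genes the called falls run from -1.13 for Hsd3b2 to -0.52 for Hsd17b12, Hsd3b7 is the called square at -0.34, and the interval of Hsd3b5 spans -3.70 to 3.24.

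The remaining Hsd-named genes of a list of 15 were compared by the same fit. Of 12 with a row, 6 could be tested, 1 fell and none rose, and 2 had an unadjusted p under 0.05. Hsd3b7, which acts on the sterol ring in bile acid synthesis and lies outside the chromosome 3 cluster, fell from 443 ± 43.3 to 351 ± 22.4 CPM (SD, n = 3), or by -0.34 ± 0.10 (SE) on the log2 scale (edgeR adjusted p = 0.0430). That call was lost without vehicle 1, vehicle 3, atractylodin 1 or atractylodin 3, and with limma-voom. Hsdl1 stood at 7.15 ± 0.35 and 9.75 ± 1.27 CPM (adjusted p = 0.227) and Hsdl2 at 100.6 ± 13.5 and 119 ± 17.6 CPM (adjusted p = 0.307). Hsd17b4, the peroxisomal bifunctional enzyme gene, stood at 392 ± 22.6 and 418 ± 30.2 CPM (adjusted p = 0.634). Hsd17b7, an enzyme of cholesterol synthesis, stood at 56.8 ± 19.7 and 51.4 ± 11.5 CPM (adjusted p = 0.817), and Hsd3b6 at 1.34 ± 0.29 and 1.14 ± 0.66 CPM (adjusted p = 0.911).

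Of the 6 that were too low to test, Hsd17b14 had 0 counts in all 6 libraries, which allows up to 0.243 to 1.61 CPM per library. Hsd3b1, Hsd3b4, Hsd11b2, Hsd17b1 and Hsd17b3 averaged 1.2 CPM or less in either group. Hsd17b3, which makes testosterone in testis, held 1, 4 and 4 counts in vehicle and 13, 7 and 19 in atractylodin libraries. Hsd3b8, Hsd3b9 and Hsd17b8 were not analysed here.

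Because Hsd3b5 is a male-biased gene, genes with a sex bias in mouse liver were set beside it. Of 18 male-biased genes 6 rose and 2 fell (median log2 fold change 0.26), and of 9 tested female-biased genes 3 rose and 2 fell (median 0.48), so both lists held calls in both directions. The leave-one-out fits gave 3 to 4 rises and 1 to 3 falls of male-biased genes, with 3 of each without atractylodin 2, and 2 to 3 rises and 1 to 2 falls of female-biased genes, with 2 of each without vehicle 2 or vehicle 3. With RLE, upper quartile or total count scaling 4 male-biased genes rose and 2 fell. Among male-biased genes the urinary protein genes Mup1 (2052 ± 300 to 3447 ± 356 CPM, ± SD, 3 libraries a group, adjusted p = 0.000712) and Mup7 (1685 ± 344 to 3642 ± 554 CPM, adjusted p = 0.00186) rose, though reads of Mup paralogs may be shared. Elovl3 and Cyp7b1, given above, are on this list too, the first lower and the second higher. Among female-biased genes Cyp2b9 fell from 92.4 ± 4.58 to 53.0 ± 7.31 CPM (adjusted p = 0.000319) and Cyp2b13 from 5.45 ± 2.74 to 1.45 ± 0.48 CPM (adjusted p = 0.0198). Fmo2 rose 1.96-fold (adjusted p = 0.00742) and Cyp4a14 from 5289 ± 608 to 9349 ± 1903 CPM (adjusted p = 0.00454). The call of Cyp2b13 was gone in 3 of the 6 leave-one-out fits, and those of Fmo2 and Cyp4a14 in 1 each, without vehicle 3 and without vehicle 2.

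**Figure D3:**
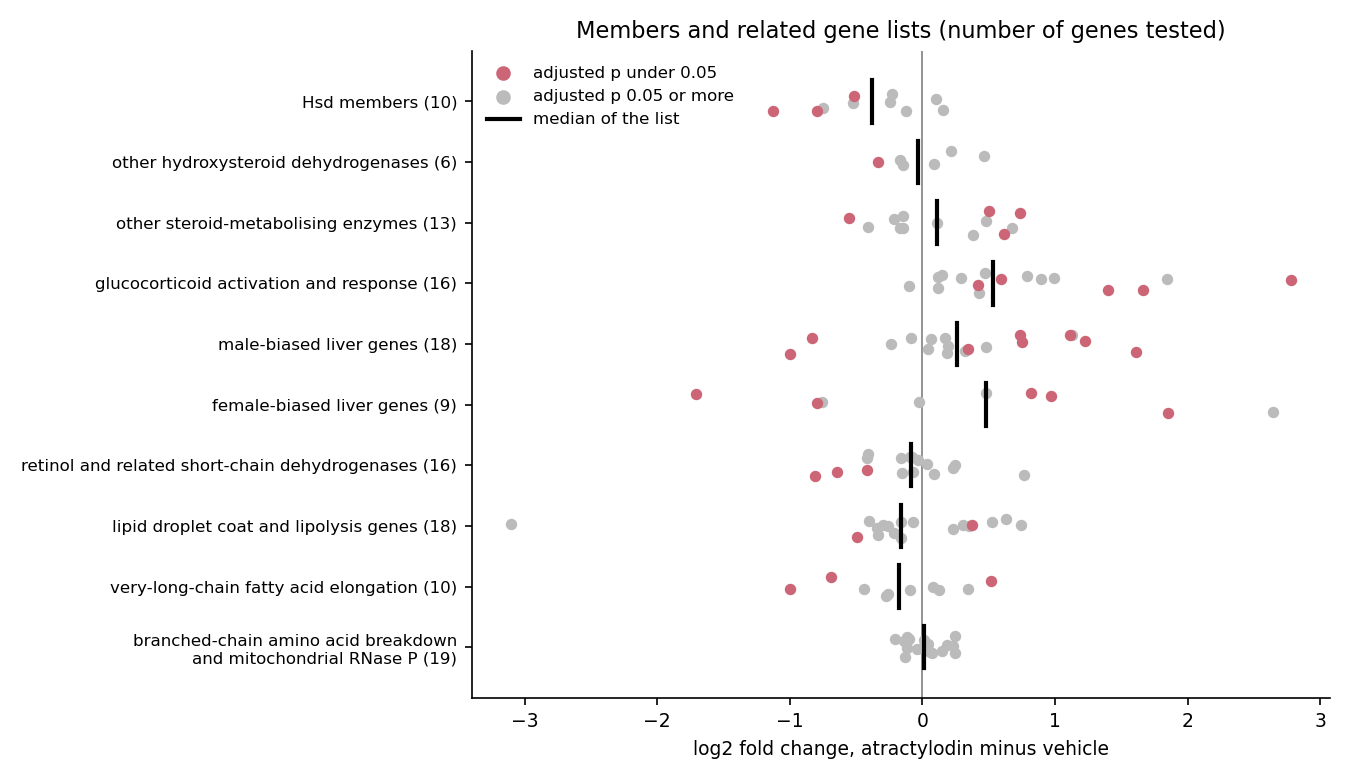
Log2 fold changes (atractylodin minus vehicle, edgeR) of the 10 genes and of the related lists, 1 point per tested gene; red points have an adjusted p under 0.05 and black bars are list medians. The median of the 10 genes lies at -0.38, that of the other Hsd genes at -0.03 and that of the glucocorticoid list at 0.53.

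For the 3 genes with the largest absolute log2 fold change, the rows of the most similar pattern were sought among 9650 others whose average log2 CPM reached 2. Likeness was the root mean square difference of log2 CPM over the 6 libraries after each gene was centred on its own mean. Similar log2 fold changes follow from this choice and are no separate result. Closest to Hsd3b2 were Arrdc3 (0.16), Srebf1 (0.20), which encodes the main transcription factor of fatty acid synthesis, and Rnf152 (0.21), with log2 fold changes of -1.08, -1.19 and -1.13. Closest to Hsd17b2 were Amdhd1 (0.070), an enzyme gene of histidine breakdown, Stxbp6 (0.075) and Trim2 (0.081), with log2 fold changes of -0.87, -0.79 and -0.75. Closest to Hsd3b3 were Clec12a, Fam129b and Cenpa, each at 0.12, of which none passed the threshold (adjusted p of 0.191, 0.123 and 0.106).

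**Figure D4:**
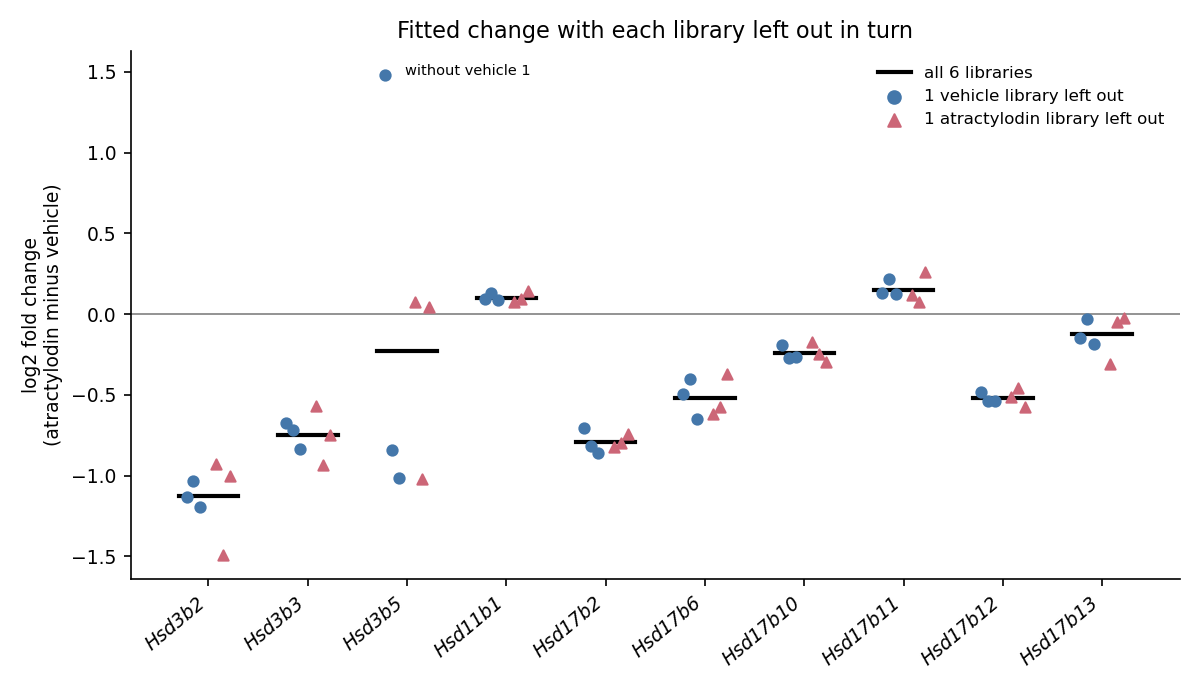
Log2 fold change of each of the 10 genes from all 6 libraries (black bars) and with each library left out in turn (blue circles, a vehicle library; red triangles, an atractylodin library). Values stay on 1 side of 0 for each gene except Hsd3b5, which runs from -1.02 to 1.48.

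Summed over the 10 genes, expression was 2083 to 2376 CPM in the vehicle libraries and 1792 to 2060 CPM in the atractylodin libraries. The ranges did not overlap but nearly touched. Within the vehicle group the coefficient of variation was at most 16.9% for each gene except Hsd3b5 (141%). Within the atractylodin group it was highest for Hsd3b5 (69.3%), Hsd3b2 (40.7%), Hsd3b3 (25.4%) and Hsd17b13 (21.3%), and lowest for Hsd11b1 (4.86%) and Hsd17b2 (5.50%).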

How the data were processed

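RNA was extracted with Trizol, 500 ng of it entered each 3' library, and the deposited tables give unnormalized read counts by gene symbol, per the labels' protocols and the files' values. The submitters' processing notes name Bowtie2, bedtools and mm10. Annotation, strand setting, multi-mapping and molecular identifiers are not given in the sources used here.

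Samples were grouped by title. Counts were filtered (filterByExpr), scaled by TMM and fitted over all rows with the robust quasi-likelihood test of edgeR 4.0.16 (R 4.3.3), calls having a Benjamini-Hochberg adjusted p under 0.05. SE is the log2 fold change over the square root of F. CPM uses scaled sizes. Chi-square per degree of freedom between libraries was at least 2.75, so no pair was treated as 1 library deposited more than once, which does not show separate animals.

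The 10 genes, the related lists and the tests were chosen with earlier results of these data known. Named genes are the 10, all other Hsd genes tested, up to 4 called genes per related list by p (else the smallest p), of each marker list the most abundant gene and that with the smallest p (printed in part), and the 3 nearest patterns. H6pd, Nr3c1, Spp1, Cyp11a1, Cyp11b1, Cyp11b2, Hsd17b3 and Hsd17b14 were added after their values were seen. Alternatives were DESeq2 1.42.0, limma-voom 3.58.1, other scalings and filters, thinning, a replicate block and leaving out each library. Positions are from GENCODE M21 on GRCm38 and promoters from RefSeq. Coding and transcript-end identities are from global alignments in Biopython 1.88, and figures were drawn in matplotlib 3.10.9.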

Additional observations from a re-analysis of the deposited data

How the results depend on the processing

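Of 148 values of the 10 genes under 15 alternatives, 129 kept direction and side of the threshold, 14 gained a call and 5, all of Hsd3b5, turned sign. Those 5 were 0.99 with limma-voom, 0.12 with the replicate block, and 3 of the leave-one-out fits, whose values ran from -1.02 to 1.48 (1.48 without vehicle 1, 0.07 without atractylodin 1, 0.04 without atractylodin 3). The number of the 10 genes called was 5 with DESeq2, with total counts alone, with no filter and with the replicate block, and 3 to 4 over fits that left out a library. The number of other Hsd genes called went from 1 to 0 with limma-voom, the replicate block and thinning to the shallowest library, and was 0 to 1 without single libraries. Over all rows, 554 genes were called after thinning and 467 to 751 without single libraries. The lowest counts were 467 without vehicle 3 and 494 without vehicle 1. Fewer reads or libraries entered these fits. The cause of these lower counts and of the other changes was not tested. Deviations from the group means correlated at -0.034, -0.095 and 0.033 for equal replicate numbers 1, 2 and 3, and at -0.095 to 0.131 for unlike numbers. Equal numbers thus did not stand out, but with 3 libraries a group this cannot exclude pairing. With the replicate block 811 genes were called over all rows. Thinning also ended the calls of Akr1d1, Cyp2b13, Fmo2, Rdh9, Elovl6, Spp1 and Themis. At these depths 6 Hsd genes did not pass the filter on low counts and got no test.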
